A study of Homo sapiens with 6 samples.

Results

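The genes described here are the receptor tyrosine kinases and ligands of a list of 46 symbols, 32 receptors and 14 ligands. They were chosen by name as gene family members, with earlier results of these data known. Each matched 1 row of a table of 61533 genes. The table holds read counts from ribosome-depleted total RNA of MDA-MB-231, an established mesenchymal-like, triple-negative breast cancer line. The compared groups were 3 libraries of shKDM2B cells, which carry a short hairpin RNA against the chromatin regulator KDM2B, and 3 libraries of empty vector cells, whose genotype the labels give as WT. Both groups grew in the same DMEM-based medium with serum and were harvested before confluence. The labels name 1 line and 1 hairpin group, and do not say whether the cells were a clone or a pool, nor whether the biological replicates were separate cultures. The p-values therefore measure only how these 6 libraries spread, and that spread may be technical. Levels below are CPM, a gene's count relative to the total of its library, scaled by TMM, and log2 fold changes are shKDM2B over empty vector from edgeR's quasi-likelihood test over all genes. An adjusted p (Benjamini-Hochberg over 14071 tested genes) under 0.05 was called a change.

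Receptor tyrosine kinases are single-pass membrane proteins whose cytoplasmic kinase is switched on when an extracellular ligand brings receptor chains together. Their ligands are secreted growth factors, membrane-bound precursors released by proteases, or, for the EPH receptors, ephrins displayed on a neighbouring cell. The receptors feed the RAS-ERK and PI3K pathways, and in basal-like breast cancer lines EGFR, MET, AXL and EPHA2 are among the best known. KDM2B binds unmethylated CpG dinucleotides through a CXXC zinc finger and brings a Polycomb complex to CpG islands.

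Library totals ran from 10190149 to 15737951 counts, so that a count of 0 allows up to 0.195 to 0.292 TMM-scaled CPM (3 counts in 1 library, counting error only). KDM2B itself, the targeted gene, had 14.9, 14.5 and 14.6 CPM in shKDM2B cells, against 57.3, 68.0 and 65.3 CPM in empty vector cells (log2 fold change -2.12, SE 0.08, adjusted p 8.77e-11). Within each group 1 library stood apart: shKDM2B replicate 1 differed from the others of its group with a chi-square per degree of freedom of 6.80 and 8.74, against 2.03 between the other two. Empty vector replicate 2 did so with 5.43 and 6.11, against 1.89. Results that changed when a library was left out are named below. Of 8 markers of the line 5 were tested, 2 of them higher and 1 lower in shKDM2B cells, beside 30.5% and 30.4% of all tested genes. VIM, CD44, KRT8 and KRT18 were abundant in both groups. ESR1 and PGR had at most 4 counts in any library. CDH1 (E-cadherin) had 4, 4 and 2 counts in shKDM2B libraries and 0 in every empty vector library. VIM (vimentin) fell to 406 ± 10.3 CPM in shKDM2B cells, against 1299 ± 52.3 CPM in empty vector cells (SD, n = 3 each; log2 fold change -1.68, SE 0.04, adjusted p 1.43e-12). The epithelial keratin KRT8 rose to 436 ± 16.6 CPM in shKDM2B cells, against 310.4 ± 36.9 CPM in empty vector cells (SD, n = 3 each; log2 fold change 0.49, SE 0.07, adjusted p 5.24e-05). CD44 rose to 1258 ± 22.4 CPM in shKDM2B cells, against 1094 ± 129 CPM in empty vector cells (SD, n = 3 each; log2 fold change 0.20, SE 0.07, adjusted p 0.0309), and KRT18 did not pass the threshold (log2 fold change 0.19, SE 0.10, adjusted p 0.132).

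Of the 46 genes, 36 had enough counts to be tested and 10 did not. Of the 36, 20 were higher and 9 lower in shKDM2B cells, and 7 did not pass the threshold. The background was high: 60.9% of all tested genes changed, 30.5% higher and 30.4% lower. Among the 36, 80.6% changed. The list was drawn up with earlier results of these data known, so the shares and the median of the 36 are descriptions. The libraries of the groups did not overlap for 31 of the 36, beside 65.5% of all tested genes. The median log2 fold change was 0.41, beside -0.01 over all tested genes. At least 2-fold changes were called for 9 higher and 3 lower genes of the 36, beside 7.14% and 4.85% of all tested genes. The libraries of either group alone would have carried 33 of the 36 past the low-count filter. EPHB3 and PDGFB passed through the shKDM2B libraries only and TIE1 through the empty vector libraries only, so that a difference in these 3 was built into the filter.

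**Figure D1:**
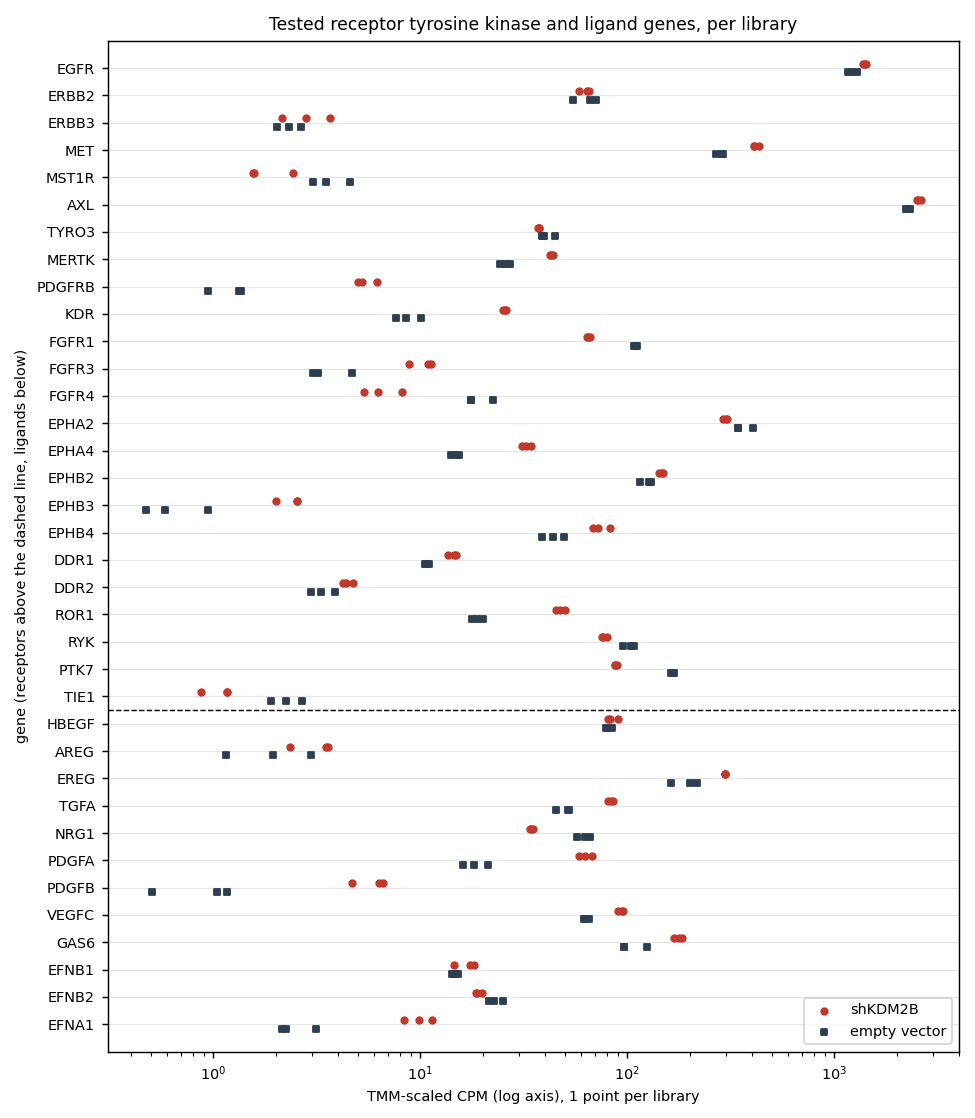
TMM-scaled CPM (x axis, log scale) of the 36 tested genes (y axis) in each of 3 shKDM2B libraries (circles) and 3 empty vector libraries (squares), receptors above the dashed line and ligands below it. AXL and EGFR lie far to the right, and PDGFRB, EPHB3, PDGFB and EFNA1 show wide gaps between the groups at low levels.

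AXL, EGFR, EPHA2 and MET were the most abundant receptors in both groups, and none of them changed by as much as 2-fold. Per kilobase of annotated exon, AXL averaged 495 ± 10.2 CPM per kb in shKDM2B cells and 439.8 ± 9.96 in empty vector cells. EGFR followed with 112 ± 2.39 and 97.6 ± 4.67, EPHA2 with 71.5 ± 1.55 and 87.4 ± 8.41, and MET with 59.1 ± 1.96 and 40.0 ± 1.76 CPM per kb in shKDM2B and empty vector cells (SD, n = 3 each). In empty vector replicate 2 EPHA2 stood above EGFR, so the order of these neighbours was not fixed. AXL alone made up 59.9 to 60.0% of the summed per-length level of the 32 receptors in shKDM2B libraries, and 58.2 to 58.9% in empty vector libraries. Next came EPHB2 and EPHB4 in shKDM2B cells, at 11.6 ± 0.247 and 11.5 ± 1.10 CPM per kb, which did not differ beyond their spread, and PTK7 in empty vector cells, at 18.4 ± 0.292. Summed over the 32 receptors, the per-length level was 826 ± 17.2 in shKDM2B and 750.1 ± 13.1 in empty vector cells, 1.10 times as high. Summed over the 14 ligands it was 199 ± 2.76 and 136 ± 2.72 in those groups, 1.46 times as high. In both sums every shKDM2B library lay above every empty vector library. Fewer cells expressing a gene and less RNA per cell cannot be told apart in such bulk samples.

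In the EGFR family, EGFR rose slightly, its ligands EREG and TGFA rose more, and NRG1 fell. EGFR, the receptor of the EGF-like growth factors, had 1399, 1369 and 1429 CPM in shKDM2B cells, against 1281, 1164 and 1223 CPM in empty vector cells (log2 fold change 0.19, SE 0.04, adjusted p 7.58e-04). Its groups did not overlap, but the difference was 1.14-fold. ERBB2, the partner receptor without a known ligand of its own, had 64.2, 58.1 and 65.2 CPM in shKDM2B cells, against 54.6, 70.9 and 65.7 CPM in empty vector cells (log2 fold change -0.03, SE 0.08, adjusted p 0.787). The groups overlapped for ERBB2 and for ERBB3, the neuregulin receptor with a weak kinase, which averaged 2.88 ± 0.766 CPM in shKDM2B cells, against 2.34 ± 0.313 CPM in empty vector cells (SD, n = 3 each; log2 fold change 0.27, SE 0.24, adjusted p 0.352). EREG (epiregulin), the most abundant of the 14 listed ligands per length in both groups, had 295, 297 and 297 CPM in shKDM2B cells, against 200.4, 163 and 216 CPM in empty vector cells (log2 fold change 0.62, SE 0.08, adjusted p 3.72e-05). TGFA, another EGFR ligand, had 83.2, 85.5 and 80.3 CPM in shKDM2B cells, against 51.9, 45.3 and 52.3 CPM in empty vector cells (log2 fold change 0.73, SE 0.06, adjusted p 2.15e-07). Each shKDM2B library was above each empty vector library for both. AREG (amphiregulin), whose gene lies 56 kb from EREG on chromosome 4, had 36, 41 and 36 counts in shKDM2B and 20, 31 and 16 in empty vector libraries (log2 fold change 0.65, SE 0.30, adjusted p 0.0761). These counts overlapped after scaling, and AREG passed the threshold without empty vector replicate 2 (log2 fold change 1.02, adjusted p 0.00387) or without shKDM2B replicate 3 (adjusted p 0.0446); over all alternatives its adjusted p ran from 0.00387 to 0.367. HBEGF, which binds EGFR and ERBB4, had 81.1, 82.1 and 89.7 CPM in shKDM2B cells, against 78.9, 80.3 and 84.5 CPM in empty vector cells and did not pass the threshold (log2 fold change 0.06, SE 0.06, adjusted p 0.427). NRG1 (neuregulin 1), which signals through ERBB3, went the other way, with 34.4, 33.8 and 35.0 CPM in shKDM2B cells, against 62.6, 56.9 and 66.3 CPM in empty vector cells (log2 fold change -0.85, SE 0.07, adjusted p 1.35e-07). For NRG1 all shKDM2B libraries lay below all empty vector libraries.

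MET and MST1R, the 2 members of the scatter factor receptor family, changed in opposite directions. MET, the receptor of HGF, had 407, 409 and 432 CPM in shKDM2B cells, against 287, 267 and 290.1 CPM in empty vector cells (log2 fold change 0.57, SE 0.05, adjusted p 2.19e-07). MST1R, which encodes RON, had 25, 18 and 24 counts in shKDM2B and 36, 32 and 63 in empty vector libraries, a level of 1.86 ± 0.497 CPM in shKDM2B cells, against 3.70 ± 0.777 CPM in empty vector cells (SD, n = 3 each; log2 fold change -1.04, SE 0.24, adjusted p 0.00197). The groups did not overlap for either receptor. HGF had at most 1 count in any library, so its level was not detectable at this depth.

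Among the TAM receptors, which recognise phosphatidylserine through bridging ligands, AXL rose slightly (1.13-fold) and MERTK rose more (1.66-fold). AXL had 2515, 2528 and 2611 CPM in shKDM2B cells, against 2227, 2325 and 2249 CPM in empty vector cells (log2 fold change 0.17, SE 0.03, adjusted p 3.15e-04). MERTK, best known for clearance of dead cells by macrophages, had 42.2, 42.6 and 43.6 CPM in shKDM2B cells, against 27.2, 24.3 and 25.8 CPM in empty vector cells (log2 fold change 0.73, SE 0.07, adjusted p 8.88e-07). TYRO3 had 37.5, 37.3 and 37.1 CPM in shKDM2B cells, against 38.6, 44.8 and 39.8 CPM in empty vector cells, without overlap of the groups but not past the threshold (log2 fold change -0.14, SE 0.07, adjusted p 0.123). GAS6, a bridging ligand of all 3 receptors, had 185, 178 and 169 CPM in shKDM2B cells, against 96.1, 125 and 96.7 CPM in empty vector cells (log2 fold change 0.74, SE 0.09, adjusted p 2.03e-05). Empty vector replicate 2 stood above the other empty vector libraries for GAS6, and still below every shKDM2B library. PROS1 (protein S), the other bridging ligand, rose to 60.3 ± 1.47 CPM in shKDM2B cells, against 21.5 ± 1.57 CPM in empty vector cells (SD, n = 3 each; log2 fold change 1.49, SE 0.07, adjusted p 6.94e-10).

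The PDGF system held the 2 largest log2 fold changes of the list, those of PDGFB and PDGFRB. PDGFB had 48, 72 and 101 counts in shKDM2B libraries and 12, 11 and 7 in empty vector libraries, or 4.67, 6.31 and 6.58 CPM in shKDM2B cells, against 1.17, 1.05 and 0.507 CPM in empty vector cells (log2 fold change 2.75, SE 0.27, adjusted p 7.89e-07). PDGFRB, the receptor it activates, had 54, 57 and 95 counts in shKDM2B and 14, 14 and 13 in empty vector libraries, or 5.25, 4.99 and 6.19 CPM in shKDM2B cells, against 1.36, 1.33 and 0.941 CPM in empty vector cells (log2 fold change 2.21, SE 0.22, adjusted p 8.94e-07). In the GRCh38 annotation (GENCODE 29) the genes are ENSG00000100311.17 on chromosome 22 from 39223359 to 39244751, minus strand and ENSG00000113721.14 on chromosome 5 from 150113837 to 150155872, minus strand. Both were low, and the empty vector side of each fold rests on few counts. PDGFB passed the low-count filter through the shKDM2B libraries only, so that a difference in it was built into the filter. PDGFA, a ligand of PDGFRA, was higher with more counts behind it, at 62.8, 58.3 and 67.3 CPM in shKDM2B cells, against 16.1, 21.2 and 18.1 CPM in empty vector cells (log2 fold change 1.77, SE 0.09, adjusted p 1.49e-09). PDGFRA itself had at most 2 counts in any library. KIT, its neighbour 360 kb away on chromosome 4, had at most 4. CSF1R, which lies 464 bases beyond the end of PDGFRB on the same strand of chromosome 5, had 34, 31 and 53 counts in shKDM2B and 8, 15 and 15 in empty vector libraries (log2 fold change 1.52, SE 0.26, adjusted p 1.64e-04); it was picked out after its values were seen. CSF1, the ligand of CSF1R, averaged 123 ± 3.59 CPM in shKDM2B cells, against 33.2 ± 1.70 CPM in empty vector cells (SD, n = 3 each). PDGFC, a PDGF ligand outside the list and more abundant than PDGFA, rose less. It averaged 289 ± 6.75 CPM in shKDM2B cells, against 234 ± 4.94 CPM in empty vector cells (SD, n = 3 each, log2 fold change 0.31, SE 0.05, adjusted p 5.64e-05). PDGFD had a log2 fold change of 0.87 (SE 0.13, adjusted p 3.47e-05). PDGFC and PDGFD were picked out after their values were seen.

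PDGFRB is also a marker of fibroblasts and of the mural cells around vessels. Of 10 other fibroblast markers only COL1A1 and FBLN1 had enough counts to be tested, and both were higher, beside 30.5% of all tested genes. Their log2 fold changes were 3.53 and 0.95. The other 8, among them COL1A2, COL3A1, DCN and LUM, each had no more than 4 counts in a library. The summed level of the list was 73.2 to 80.5 CPM in shKDM2B and 10.1 to 13.9 CPM in empty vector libraries. In shKDM2B libraries most of it was COL1A1, with a mean of 66.4 CPM. In empty vector libraries COL1A1 and FBLN1 averaged 5.78 and 5.32 CPM. Of 8 mural markers 6 were tested, 3 of them higher and 0 lower, so that 50% changed, beside 60.9% of all tested genes. NOTCH3, CSPG4 and MCAM had log2 fold changes of 3.05, 2.08 and 0.53, while RGS5 had -0.39 (adjusted p 0.0557). The summed level of the 8 mural markers was 559 to 564 CPM in shKDM2B and 353 to 378 CPM in empty vector libraries, and DES had at most 2 counts. Most of this sum was MCAM in both groups, at 487 CPM in shKDM2B and 338 CPM in empty vector cells. The part of mural or fibroblast genes in the difference of PDGFRB was not tested. Of 10 leukocyte markers only LCP1 was tested, at -1.60 on the log2 scale, and 4 had no count in any library.

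KDR, which encodes the main signalling receptor of VEGF in endothelium, had 26.1, 25.2 and 25.8 CPM in shKDM2B cells, against 10.1, 8.57 and 7.60 CPM in empty vector cells (log2 fold change 1.56, SE 0.11, adjusted p 2.06e-08). All shKDM2B libraries were above all empty vector libraries. FLT1 and FLT4, the other VEGF receptors, had at most 2 and 3 counts. VEGFC, a ligand of FLT4 and KDR, had 93.9, 89.7 and 95.3 CPM in shKDM2B cells, against 62.2, 65.6 and 61.8 CPM in empty vector cells (log2 fold change 0.56, SE 0.05, adjusted p 6.82e-07). VEGFA, the main ligand of KDR, fell to 28.8 ± 2.38 CPM in shKDM2B cells, against 51.6 ± 1.09 CPM in empty vector cells (SD, n = 3 each; log2 fold change -0.85, SE 0.07, adjusted p 2.55e-07); it was picked out after its values were seen. TIE1, an endothelial receptor without a known high-affinity ligand of its own, was lower, with 12, 10 and 18 counts in shKDM2B and 23, 20 and 37 in empty vector libraries (log2 fold change -1.09, SE 0.27, adjusted p 0.00297). TIE1 passed the low-count filter through the empty vector libraries only, so that a difference in it was built into the filter. TEK, the angiopoietin receptor, had 3, 2 and 3 counts in shKDM2B and 0 in each empty vector library. Its shKDM2B levels, 0.175 to 0.292 CPM, lay within what a count of 0 allows, and it was called only when no filter was used (adjusted p 0.0388). Of 10 other endothelial markers 3 were tested and 1 changed (33.3%), beside 60.9% of all tested genes. ESAM rose (log2 fold change 1.58, adjusted p 1.14e-10), ROBO4 and EGFL7 did not pass the threshold at -0.08 and -0.16, and the other 7 were not tested. Those included PECAM1 with 7 to 8 counts in shKDM2B and 3 to 6 in empty vector libraries, and CDH5 with at most 2 counts. The list summed to 230.1 to 239.6 CPM in shKDM2B and 127 to 144 CPM in empty vector libraries, a difference that came from ESAM. ESAM averaged 155 CPM in shKDM2B and 52.0 CPM in empty vector cells. ROBO4 averaged 64.8 and 68.5 CPM, and EGFL7 12.5 and 14.1 CPM, in those groups. The part of the listed markers in the differences of KDR and TIE1 was not tested.

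The FGF receptors were split. FGFR1 had 64.0, 66.0 and 64.9 CPM in shKDM2B cells, against 108, 109 and 111 CPM in empty vector cells (log2 fold change -0.75, SE 0.05, adjusted p 1.35e-08). FGFR4 had 6.22, 8.14 and 5.34 CPM in shKDM2B cells, against 17.6, 22.6 and 17.6 CPM in empty vector cells (log2 fold change -1.56, SE 0.15, adjusted p 7.81e-07). FGFR3 went the other way, with 10.9, 11.2 and 8.79 CPM in shKDM2B cells, against 3.21, 4.67 and 3.04 CPM in empty vector cells (log2 fold change 1.50, SE 0.18, adjusted p 5.07e-06). None of the 3 had overlapping groups. FGFR1 stood above FGFR4 and FGFR3 per length in both groups, at 4.69 ± 0.0742 CPM per kb in shKDM2B and 7.91 ± 0.125 in empty vector cells. FGFR4 had 1.36 ± 0.297 and 3.99 ± 0.595, and FGFR3 2.12 ± 0.271 and 0.751 ± 0.184 CPM per kb in shKDM2B and empty vector cells. FGFR3 was thus above FGFR4 per length in shKDM2B cells and below it in empty vector cells. FGFR2 had at most 2 counts. FGF2 had 6, 3 and 11 counts in shKDM2B and 2, 1 and 4 in empty vector libraries and was not tested. FGF5, an FGF ligand outside the list, averaged 188 ± 2.05 CPM in shKDM2B cells, against 224 ± 33.1 CPM in empty vector cells (SD, n = 3 each). Its groups overlapped (log2 fold change -0.25, SE 0.09, adjusted p 0.0259), and it was picked out after its values were seen. FGF1, which binds all FGF receptors, fell to 3.26 ± 0.856 CPM in shKDM2B cells, against 13.7 ± 0.563 CPM in empty vector cells (SD, n = 3 each; log2 fold change -2.06, SE 0.16, adjusted p 6.22e-08). FGFRL1, an FGF-binding receptor without a kinase domain, fell to 9.36 ± 0.545 CPM in shKDM2B cells, against 48.0 ± 1.64 CPM in empty vector cells (SD, n = 3 each; log2 fold change -2.35, SE 0.08, adjusted p 3.75e-11).

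The stretches of 250 bases before the start of PDGFRB, PDGFA, FGFR3 and FGFR4 are shown. PDGFRB and PDGFA are genes of the PDGF system that rose, and FGFR3 and FGFR4 are FGF receptors that changed in opposite directions. They come from RefSeq (GRCh38.p14), read 5′ to 3′ on the gene's strand, with CG dinucleotides in capitals.
PDGFRB, chr5:150155846-150156095, minus strand: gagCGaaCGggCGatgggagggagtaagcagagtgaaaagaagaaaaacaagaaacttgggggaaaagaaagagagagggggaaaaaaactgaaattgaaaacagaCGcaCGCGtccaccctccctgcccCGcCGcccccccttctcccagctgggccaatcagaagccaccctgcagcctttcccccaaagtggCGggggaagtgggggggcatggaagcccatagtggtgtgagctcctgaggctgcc
PDGFA, chr7:520227-520476, minus strand: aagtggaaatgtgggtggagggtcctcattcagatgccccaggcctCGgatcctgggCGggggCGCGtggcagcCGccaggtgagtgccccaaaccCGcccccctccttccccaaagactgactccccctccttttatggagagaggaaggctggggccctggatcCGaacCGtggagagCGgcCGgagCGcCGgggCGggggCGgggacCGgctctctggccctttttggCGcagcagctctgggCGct
FGFR3, chr4:1793043-1793292, plus strand: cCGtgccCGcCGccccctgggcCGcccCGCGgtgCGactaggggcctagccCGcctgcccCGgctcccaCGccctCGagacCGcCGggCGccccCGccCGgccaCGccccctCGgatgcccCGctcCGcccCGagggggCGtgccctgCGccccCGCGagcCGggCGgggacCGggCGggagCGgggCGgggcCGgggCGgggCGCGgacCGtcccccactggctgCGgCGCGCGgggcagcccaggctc
FGFR4, chr5:177086665-177086914, plus strand: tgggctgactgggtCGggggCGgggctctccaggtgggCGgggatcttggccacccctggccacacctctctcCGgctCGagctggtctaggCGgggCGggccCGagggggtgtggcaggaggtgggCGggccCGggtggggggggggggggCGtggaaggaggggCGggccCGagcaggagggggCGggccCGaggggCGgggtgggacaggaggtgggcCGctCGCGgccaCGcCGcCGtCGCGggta

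These windows held 9 CG dinucleotides for PDGFRB, 17 for PDGFA, 40 for FGFR3 and 24 for FGFR4. FGFR3 had the most of the 4, and PDGFRB and PDGFA, which rose together, had fewer than FGFR4. Windows were matched for 41 of the 46 genes (not ERBB3, FGFR1, FLT4, NRG1 and PDGFB). The 41 include 9 genes that were not tested, unlike the promoters of tested genes set beside them below. Over 10410 promoters of tested genes the median was 21, with quartiles of 14 and 28, so that FGFR4 and PDGFA lay between the quartiles, FGFR3 above them and PDGFRB below them. The median was 24 for the 19 matched genes that were higher and 24 for the 7 that were lower, and AXL (4) and TIE1 (1) were among the poorest. The GC box word GGGCGG, searched on both strands, was found in 32 of the 41 windows (78.0%), in 67.4% of promoters of tested genes and in 42.6% of all 35116 promoters in the table; each copy contains a CG counted above, so this share is not separate from the CG counts. TATAAA, searched likewise, was found in 5 of the 41 (12.2%), in 5.55% of promoters of tested genes and in 10.7% of all. TGANTCA, the AP-1 word, was found in 3 (ERBB2, PDGFRA and TYRO3; 7.32%), in 3.85% of promoters of tested genes and in 6.57% of all.

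The EPH receptors, which bind ephrins on neighbouring cells, were higher for 4 of 5 tested members, beside 30.5% of all tested genes; one of the 4, EPHB3, passed the low-count filter through the shKDM2B libraries only. EPHA4 had 32.4, 31.0 and 34.1 CPM in shKDM2B cells, against 14.8, 15.4 and 14.0 CPM in empty vector cells (log2 fold change 1.15, SE 0.09, adjusted p 4.57e-08). EPHB4 had 68.6, 72.0 and 82.2 CPM in shKDM2B cells, against 43.8, 49.7 and 38.5 CPM in empty vector cells (log2 fold change 0.77, SE 0.09, adjusted p 8.02e-06), and EPHB3 had 26, 29 and 31 counts in shKDM2B and 6, 5 and 13 in empty vector libraries (log2 fold change 1.74, SE 0.31, adjusted p 2.31e-04). EPHB2, a receptor of B-class ephrins, had 146, 142 and 148 CPM in shKDM2B cells, against 128, 115 and 131 CPM in empty vector cells (log2 fold change 0.22, SE 0.06, adjusted p 0.00361). EPHA2, the most abundant EPH receptor of the line, was the one that fell, with 290.1, 300.1 and 302 CPM in shKDM2B cells, against 343, 404 and 344 CPM in empty vector cells (log2 fold change -0.29, SE 0.06, adjusted p 9.19e-04). The libraries of the groups did not overlap for any of the 5, as for 65.5% of all tested genes. EPHB6, a receptor without kinase activity, had at most 2 counts. EFNA1, a membrane-anchored ligand of EPHA2, had 86, 113 and 175 counts in shKDM2B and 22, 33 and 31 in empty vector libraries, or 8.36, 9.90 and 11.4 CPM in shKDM2B cells, against 2.14, 3.14 and 2.24 CPM in empty vector cells (log2 fold change 2.00, SE 0.19, adjusted p 4.37e-07). It is ENSG00000169242.12 on chromosome 1 from 155127460 to 155134857, plus strand. EFNB1 averaged 16.7 ± 1.86 CPM in shKDM2B cells, against 14.7 ± 0.540 CPM in empty vector cells (SD, n = 3 each) with overlapping groups (log2 fold change 0.18, SE 0.11, adjusted p 0.144), and passed the threshold only without shKDM2B replicate 2 (adjusted p 0.0452). EFNB2, the main ligand of EPHB4, averaged 19.1 ± 0.609 CPM in shKDM2B cells, against 23.1 ± 1.92 CPM in empty vector cells (SD, n = 3 each; log2 fold change -0.27, SE 0.09, adjusted p 0.0174). Its call was lost with DESeq2 (adjusted p 0.0538), against a 1.2-fold change (0.387), without shKDM2B replicate 1 or 3 (0.0613 and 0.0631) and without empty vector replicate 1 (0.0692). An antisense gene of 4 to 18 counts per library shares 26.2% of its annotated exon bases, and whether reads were counted by strand is among the items not given in the sources used here.

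Receptors for collagen and WNT moved in both directions. DDR1, a collagen receptor, had 14.9, 13.7 and 14.5 CPM in shKDM2B cells, against 10.6, 11.0 and 10.6 CPM in empty vector cells (log2 fold change 0.42, SE 0.10, adjusted p 0.00268). DDR2, the receptor for fibrillar collagens, averaged 4.45 ± 0.255 CPM in shKDM2B cells, against 3.40 ± 0.464 CPM in empty vector cells (SD, n = 3 each), with groups that did not overlap but an adjusted p above the threshold (log2 fold change 0.40, SE 0.18, adjusted p 0.0659). ROR1, a receptor for WNT5A, had 45.1, 47.5 and 49.9 CPM in shKDM2B cells, against 18.9, 17.8 and 20.0 CPM in empty vector cells (log2 fold change 1.33, SE 0.08, adjusted p 4.61e-09). WNT5A itself rose to 108 ± 4.08 CPM in shKDM2B cells, against 26.4 ± 4.65 CPM in empty vector cells (SD, n = 3 each; log2 fold change 2.01, SE 0.09, adjusted p 1.64e-09). PTK7, a catalytically inactive receptor of planar cell polarity, had 87.1, 87.0 and 89.5 CPM in shKDM2B cells, against 163, 168 and 167 CPM in empty vector cells (log2 fold change -0.92, SE 0.05, adjusted p 1.68e-09). RYK, another WNT receptor with an inactive kinase, had 75.4, 76.4 and 80.2 CPM in shKDM2B cells, against 108, 95.3 and 104 CPM in empty vector cells (log2 fold change -0.41, SE 0.06, adjusted p 3.10e-05). ROR1 was thus higher in every shKDM2B library, while PTK7 and RYK were lower in every one. ROR2 and RET, the receptor of the GDNF family, had at most 2 and 1 counts.

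**Figure D2:**
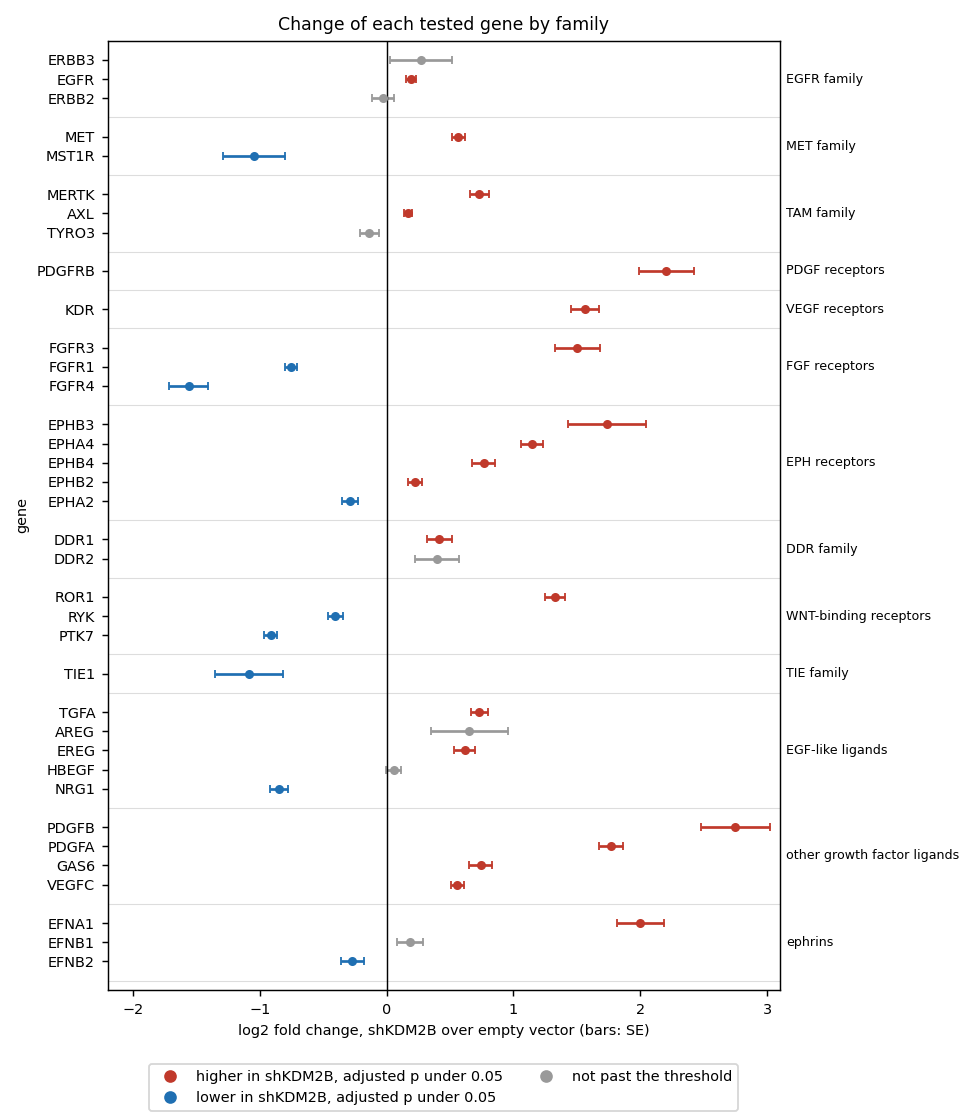
Log2 fold change, shKDM2B over empty vector (x axis; bars show the SE of edgeR's fit), of the 36 tested genes grouped by family (y axis). Higher and lower genes occur together in the MET, FGF, EPH and WNT-binding receptors, in the EGF-like ligands and in the ephrins, and PDGFB at 2.75 and FGFR4 at -1.56 mark the ends of the range.

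Within families, the 3 tested FGF receptors had log2 fold changes of 1.50, -0.75 and -1.56, while EGFR, ERBB3 and ERBB2 stayed between -0.03 and 0.27. For 13 of the 24 tested receptors the level was higher and for 7 lower; their median log2 fold change was 0.25. Of the 12 tested ligands 7 were higher and 2 lower, beside 30.5% and 30.4% of all tested genes, with a median of 0.63. These are descriptions, since the list was drawn up with results of these data known, and the difference between receptors and ligands was not tested.

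Ligand and receptor were set against each other within each library for 16 matched pairs, of which 12 had both genes tested. The log2 ratio of ligand to receptor was higher in all 3 shKDM2B libraries than in any empty vector library for 6 pairs, lower in all for 3, and overlapped for 3. Among all tested genes taken singly the groups did not overlap for 65.5%, and the share over other pairs of genes was not computed, so the 9 of 12 are a description. With 3 libraries against 3 the exact two-sided permutation test cannot go below p = 0.1, which these 9 pairs reached (0.133 after Benjamini-Hochberg adjustment over the 12), so no pair could pass the threshold. The widest shift was that of EFNA1 against EPHA2, whose log2 ratio was -5.09, -4.90 and -4.71 in shKDM2B and -7.22, -6.93 and -7.16 in empty vector libraries. Its mean differed by 2.20, from a rise of the ligand and a fall of the receptor. EFNA5, an A-class ephrin outside the matched pairs, was more abundant than EFNA1 and went the other way. It averaged 51.8 ± 0.912 CPM in shKDM2B cells, against 88.6 ± 8.22 CPM in empty vector cells (SD, n = 3 each, log2 fold change -0.77, SE 0.07, adjusted p 2.23e-07). EFNA5 was picked out after its values were seen. GAS6 gained on TYRO3 by 0.88 and on AXL by 0.58, TGFA gained on EGFR by 0.54 and EREG by 0.43. PDGFB gained on PDGFRB by 0.49, although both rose, with log2 ratios of -0.16, 0.33 and 0.09 in shKDM2B and -0.20, -0.30 and -0.72 in empty vector libraries. This pair was compared although PDGFB passed the low-count filter through the shKDM2B libraries only. NRG1 lost against ERBB3 (-1.10), and EFNB2 and EFNB1 lost against EPHB4 (-1.02 and -0.58). The ratios of HBEGF and AREG to EGFR and of EFNB1 to EPHB2 overlapped between the groups. The ratio of AREG to EGFR ceased to overlap, as a higher ratio, without empty vector replicate 2. That of HBEGF to EGFR, at -4.11, -4.06 and -3.99 in shKDM2B and -4.02, -3.86 and -3.85 in empty vector libraries, ceased to overlap as a lower ratio without shKDM2B replicate 3 or without empty vector replicate 1. HGF with MET, PDGFA with PDGFRA, FGF2 with FGFR1 and VEGFC with FLT4 each had 1 partner too low to test.

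**Figure D3:**
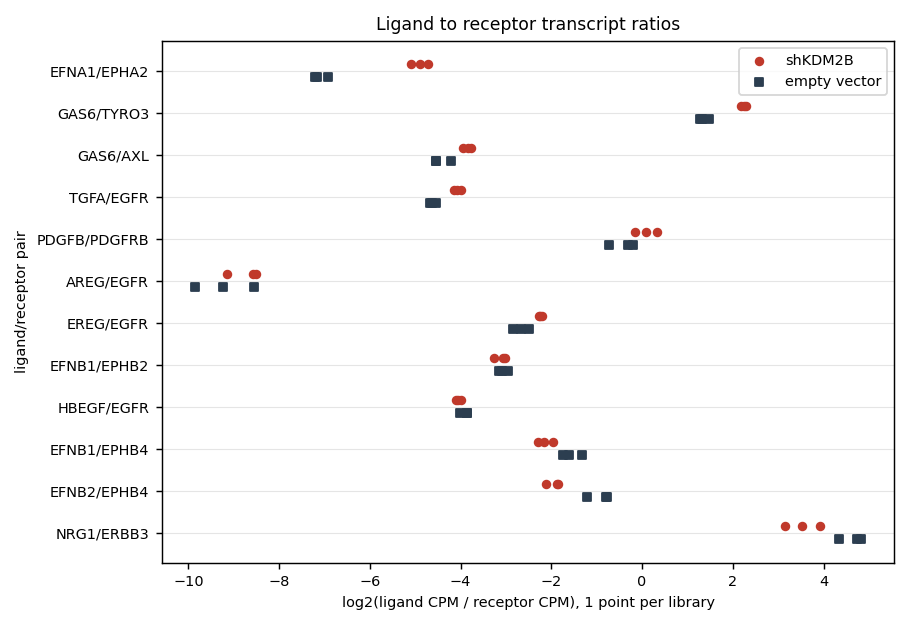
Log2 ratio of ligand to receptor TMM-scaled CPM (x axis; 2 prior counts) for 12 matched pairs (y axis) in each of 3 shKDM2B libraries (circles) and 3 empty vector libraries (squares). The EFNA1 to EPHA2 ratio lies between -5.09 and -4.71 in shKDM2B libraries and below -6.9 in the empty vector libraries.

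Genes around these receptors were followed in 6 lists. Of 26 further receptor tyrosine kinases 11 were tested, 4 higher and 3 lower, beside 30.5% and 30.4% of all tested genes. The insulin receptor INSR was higher, at 64.1 ± 2.58 CPM in shKDM2B cells, against 36.0 ± 2.20 CPM in empty vector cells (SD, n = 3 each; log2 fold change 0.84, SE 0.07, adjusted p 1.01e-07). IGF1R, the receptor of insulin-like growth factors, was lower at 134 ± 3.16 CPM in shKDM2B cells, against 176 ± 12.7 CPM in empty vector cells (SD, n = 3 each; log2 fold change -0.39, SE 0.06, adjusted p 4.60e-05), as were STYK1 (log2 fold change -1.07) and LMTK2 (-0.29). Of 57 further ligands 23 were tested, 10 higher and 5 lower, beside the same shares of all tested genes, with WNT5A, CSF1, PROS1 and FGF1 as above. Of 20 coreceptors and ligand-binding proteoglycans 13 were tested, 8 higher and 3 lower, beside the same 30.5% and 30.4% of all tested genes. Among them the heparan sulfate proteoglycans SDC2, GPC1 and GPC6 rose, with log2 fold changes of 1.98, 1.46 and 0.87, and FGFRL1 fell as given above.

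Enzymes that release or mature the ligands, and their inhibitors, were higher for 10 of 16 tested genes and lower for 4, beside 30.5% and 30.4% of all tested genes. Their median log2 fold change was 0.74. The 4 lower genes, named after their values were seen, were ADAM12, PLAU, PLAT and RHBDF2, with log2 fold changes of -2.06, -1.08, -0.99 and -0.41. ADAM17, the main sheddase of the EGFR ligands, had 153, 157 and 153 CPM in shKDM2B cells, against 68.4, 72.4 and 69.5 CPM in empty vector cells (log2 fold change 1.14, SE 0.05, adjusted p 2.70e-10). ADAM19, a metalloproteinase that can cleave neuregulin, rose to 725 ± 27.5 CPM in shKDM2B cells, against 76.6 ± 5.42 CPM in empty vector cells (SD, n = 3 each; log2 fold change 3.24, SE 0.06, adjusted p 2.28e-13). FURIN, the proprotein convertase that processes PDGF, VEGFC and MET precursors, rose to 265 ± 7.80 CPM in shKDM2B cells, against 85.2 ± 2.11 CPM in empty vector cells (SD, n = 3 each; log2 fold change 1.64, SE 0.05, adjusted p 8.83e-12). SPINT2, an inhibitor of the proteases that activate HGF, rose with a log2 fold change of 1.10. Of 22 tested adaptors and signal relay proteins 9 were higher and 7 lower, beside the same shares of all tested genes. Their median log2 fold change was 0.04 and their lowest -0.51. The largest changes were those of PIK3R3 (1.58), FRS2 (1.04), the docking protein of FGF receptors, PIK3CB (0.84) and SHC1 (0.74). Of 29 tested negative regulators 14 were higher and 5 lower, beside 30.5% and 30.4% of all tested genes. The largest changes were those of the receptor phosphatases PTPRJ (1.78), PTPRK (1.11) and PTPRF (0.91) and of SOCS5 (0.85). Of these lists, the further receptors at 63.6%, the further ligands at 65.2% and the negative regulators at 65.5% changed lay closest to the 60.9% of all genes. The adaptors stood at 72.7%, the coreceptors at 84.6% and the ligand-processing genes at 87.5%.

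**Figure D4:**
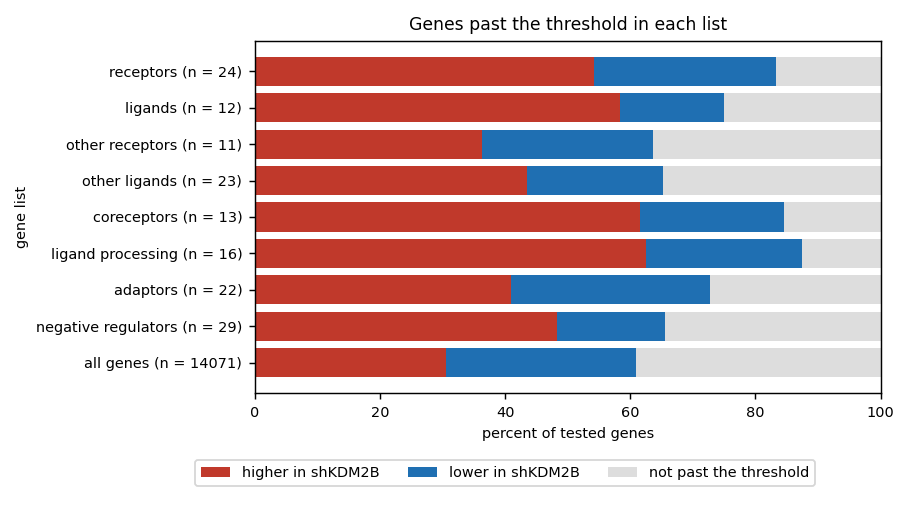
Percent of tested genes (x axis) that were higher, lower or not past the threshold in shKDM2B against empty vector cells, for the described receptors and ligands, 6 lists around them and all tested genes (y axis; n is the number tested). The ligand-processing bar reaches furthest, with 14 of 16 genes past the threshold, and the all-genes bar ends at 60.9%.

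Short hairpin RNAs can also lower transcripts whose 3' UTR matches a few bases of the guide strand, and the sequence of this hairpin was not used here. One hexamer, CGACAC, picked out earlier from these data because genes holding it in the 3' UTR tended to be lower, was counted in the described genes. Among tested genes with an annotated 3' UTR, 496 (4.21%) held it and had a median of -0.25 on the log2 scale, against 0.01 for the 11279 without it. Of the 36 genes only KDR and EFNB2 held it, once each, and their log2 fold changes were 1.56 and -0.27. Its part in these results was not tested.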

How the data were processed

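Expression was measured by sequencing ribosome-depleted total RNA (KAPA HyperPrep with RiboErase, per the labels' protocols) in 3 shKDM2B and 3 empty vector libraries. The authors deposited raw read counts, 1 column per library. Tools listed in the submitters' processing notes are STAR, featureCounts, Trim Galore, limma, edgeR and DESeq2, with GRCh38 as build; versions, roles, annotation, strand setting and the treatment of multi-mapped reads are items not given in the sources used here. Knockdown columns, named with sh and an unexplained code, were assigned to shKDM2B as the only hairpin group. All 6 libraries were used.

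Here, genes passing filterByExpr (minimum count 10, minimum total 15) were scaled by TMM and tested with edgeR 4.0.16 in R 4.3.3 (quasi-likelihood, robust, two-sided, Benjamini-Hochberg over all tested genes). The SE is the fold change over the square root of F. Per-length levels divide CPM by the union of GENCODE 29 exons. Pair ratios used log2 CPM with prior count 2 and an exact permutation test. Replicate libraries differed beyond sampling noise, so none was counted as a copy. Alternatives were other scalings and filters, DESeq2 1.42.0, limma-voom (limma 3.58.1), no robust step, a replicate block, a 1.2-fold test, prior count 0.5 and leaving out each library. The scripts were tested on simulated data.

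The listed genes and the other lists were chosen with earlier results of these data known. Values per library are given for the tested genes of the list, except ERBB3, DDR2, EFNB1 and EFNB2, for which means and SD are given. From each surrounding list, up to 4 genes past the threshold, averaging 5 CPM or more, were named by size of change, and from each marker list up to 4 tested genes. Any other gene is said to be picked out after its values were seen, or is named for its low counts.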

Additional observations from a re-analysis of the deposited data

How the results depend on the processing

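Across the 15 alternatives, no described gene that changed reversed its direction, and 526 of 540 gene-by-setting values kept their side of the threshold, with 10 calls lost and 4 gained. Calls were lost by EFNB2 (5 alternatives) and, against a 1.2-fold change, by EGFR, AXL, EPHA2, EPHB2 and DDR1; AREG and EFNB1 gained them. Against a 1.2-fold change, 16 described genes were higher and 7 lower, 1 ligand was lower, and 2797 and 2661 of all genes were higher and lower. With DESeq2, 1 ligand was lower. Leaving out 1 library gave 1 to 2 lower ligands, 6 to 7 pairs with a higher ratio and 3 to 4 with a lower one (HBEGF to EGFR added without shKDM2B replicate 3 or empty vector replicate 1). Same-numbered libraries deviated from their group means with correlations of 0.118, -0.0258 and 0.0751, so the numbers were not taken as pairs; with a replicate block, 21 described genes were higher and 9 lower (8 ligands higher, 2 lower), AREG being added at an adjusted p of 0.0265. Depth limits the 10 untested genes and the folds of PDGFB, PDGFRB and EPHB3, which rest on few empty vector counts.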
